A study of Homo sapiens with 9 samples.

Results

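The values of 10 U small nuclear RNA (snRNA) genes are described here, out of 57338 genes measured in 9 RNA libraries that are labelled as HEK293T cells, a human embryonic kidney line. The markers of that line are nearly absent from the 3 libraries labelled hPRM1, as given below. The members were listed by name and matched to their Ensembl identifiers: RNU11, RNU12 and RNU4ATAC of the minor spliceosome (3 genes), RNU4-1, RNU4-2, RNU4-62P, RNU5A-1, RNU5B-1 and RNU5D-1 of the major spliceosome (6 genes), and RNU7-1 (1 gene). U7 is not a spliceosomal RNA, since its particle cuts the 3′ ends of histone transcripts, and RNU4-62P is an annotated U4 copy (pseudogene) rather than a U4 gene. The list was drawn up with the values of the libraries labelled hPRM1 known, so those values are a description and carry no test.

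By the study's methods, cells were transfected with a pcDNA3.1 plasmid and sorted 3 days later as live cells with a high EGFP signal. There were 3 libraries with EGFP alone (empty vector), 3 labelled as EGFP fused to human protamine 1 (hPRM1) and 3 as EGFP fused to human protamine 2 (hPRM2). Nothing in the labels says that replicates came from separate cultures, so p-values measure only the spread between libraries, which may be technical. Library preparation primed on poly(A) stretches and read the 3′ ends of transcripts, whereas the U snRNAs of working spliceosomes end without a poly(A) tail.

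Spliceosomes remove introns from precursor transcripts. The major spliceosome is built from the U1, U2, U4, U5 and U6 particles and removes nearly all introns, and the minor one uses U11, U12, U4atac and U6atac, together with the same U5, for a small class of introns. U11 and U12 recognise the 5′ splice site and the branch site, U4 and U4atac hold U6 and U6atac in an inactive pairing until the complex is activated, and U5 aligns the exons. Apart from U6 and U6atac, these RNAs are transcribed by RNA polymerase II, processed by the Integrator complex, exported, loaded with a ring of Sm proteins at a short U-rich site and returned to the nucleus.

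The sequences below are the GENCODE 29 transcripts on GRCh38, 5′ to 3′, in DNA letters, and are shown because near-identical copies can share reads. Capitals mark the letters AATTTTTG or AATTTTTTG, searched on the transcript strand as the Sm site, and in RNU4-62P they mark a closing run of A. RNU11 lies at chr1:28648600-28648733 on the plus strand, RNU12 at chr22:42615244-42615393 on the plus strand and RNU4ATAC at chr2:121530881-121531007 on the plus strand. RNU4-1 lies at chr12:120293097-120293237 and RNU4-2 at chr12:120291763-120291903, both on the minus strand, and RNU4-62P at chr3:121655475-121655604 on the minus strand.
RNU11: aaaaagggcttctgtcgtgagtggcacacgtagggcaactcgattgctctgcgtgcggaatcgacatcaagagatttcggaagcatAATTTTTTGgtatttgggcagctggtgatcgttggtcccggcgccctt
RNU12: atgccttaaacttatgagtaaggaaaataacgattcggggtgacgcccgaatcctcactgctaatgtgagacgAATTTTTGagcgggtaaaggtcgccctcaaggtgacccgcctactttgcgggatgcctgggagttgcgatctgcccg
RNU4ATAC: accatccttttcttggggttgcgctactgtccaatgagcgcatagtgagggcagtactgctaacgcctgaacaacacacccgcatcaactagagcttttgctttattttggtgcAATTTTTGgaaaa
RNU4-1: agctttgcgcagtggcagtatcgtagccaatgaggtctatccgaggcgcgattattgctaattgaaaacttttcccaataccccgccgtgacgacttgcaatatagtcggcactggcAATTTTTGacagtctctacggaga
RNU4-2: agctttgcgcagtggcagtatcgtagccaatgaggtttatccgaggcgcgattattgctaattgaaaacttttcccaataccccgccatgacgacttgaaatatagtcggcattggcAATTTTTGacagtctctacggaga
RNU4-62P: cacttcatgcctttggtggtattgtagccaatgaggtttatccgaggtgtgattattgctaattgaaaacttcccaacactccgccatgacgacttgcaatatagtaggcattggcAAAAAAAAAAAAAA

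RNU4-1 and RNU4-2 had the same length of 141 bases and differed at 4 of them (97.2% identity). RNU4-62P, of 130 bases, was only 75.5% identical to RNU4-2 over the aligned columns, held neither form of the Sm letters and ended in 14 A. No other annotated transcript was identical to any of the sequences shown. RNU7-1 also lacked these letters, and the 5 other sequences shown held them. Among 1567 other annotated snRNA transcripts of 100 to 200 bases, 4.91% held the letters and 0.574% held a run of at least 10 A. A match or its absence describes the letters only.

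The surroundings of the members matter for the counting. RNU4ATAC lies within an intron of CLASP1 on the opposite strand, while RNU4-62P lies within an intron of HCLS1 on the same strand. The noncoding gene AL360012.1, of 131 bases, has the same start and strand as RNU11 and lies within its 134 bases. It was at 0 except for 38.8 RPKM, or 1.0 read, in replicate 1 labelled hPRM1, and that read cannot be told from a read of RNU11 with certainty. RNU12 lies in an exon of the noncoding gene Z93241.1 on the same strand. RNU7-1 overlaps an exon of C12orf57, and that gene was measured at 232 to 323 RPKM in the empty vector libraries.

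The depth of the libraries, estimated as reads on genes, was 7930000 to 10790000 for the empty vector, 4210000 to 5860000 for the libraries labelled hPRM1 and 1270000 to 2650000 for hPRM2. RPKM is reads scaled by library total and by length, and the study's methods name the gene length. For these short members an effective length of 2.77 to 5.18 bases was inferred here from the values instead. On that inference, 1 read on a member was worth 17.9 to 284 RPKM depending on the gene and the library. Reads on each member are therefore given beside the RPKM values. Replicate 1 of hPRM2 stood apart, with 9652 genes above 0 against 14353 to 16705 in the other 8 libraries, and results that rest on it are given with and without it.

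The labels were checked first. PRM2 was at 71224, 60050 and 36130 RPKM in the hPRM2 libraries and at 0 in the other 6, whereas PRM1 was at 0 in all 9 libraries, those labelled hPRM1 included. Of 9 marker genes of HEK293T cells, 8 were at 0 in all 3 libraries labelled hPRM1, and the sum of the 9 was 0 to 0.385 RPKM there, 143 to 223 RPKM in the empty vector libraries and 179 to 361 RPKM in hPRM2. Of these markers, LHX1 was at 63.4, 261 and 201 RPKM in hPRM2 against 10.7 to 23.0 RPKM in the empty vector libraries. PAX2, EYA1, LIN28B and IGF2BP1 were lower in every hPRM2 library than in any empty vector library, and the remaining markers overlapped. The summed RPKM of 7 red blood cell markers was 2060240 to 2266400 in the libraries labelled hPRM1, with all 7 above 0, against 3.09 to 18.2 in the empty vector libraries and 2.16 to 16.3 in hPRM2. For 8 white blood cell markers the sums were 5455 to 6339 RPKM against 0.284 to 2.27 and 0 to 2.54, and FCGR3B alone stayed at 0 in the libraries labelled hPRM1. The part of these markers in the values of the members was not tested. The library numbers in the labels also form a separate run for the 3 libraries labelled hPRM1, and this run of numbers and the condition cannot be told apart in their comparison.

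**Figure D1:**
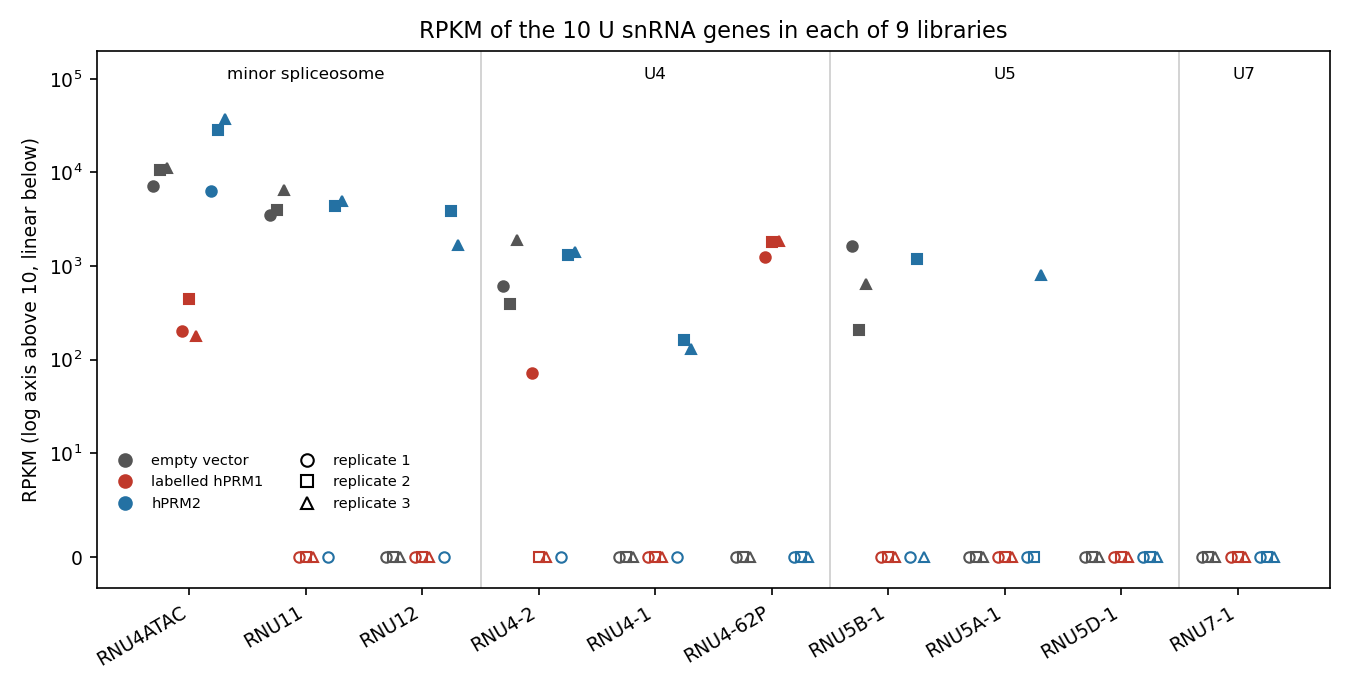
RPKM of each member (vertical axis, logarithmic above 10 and linear below) in the 9 libraries, with colour for the group, shape for the replicate and open symbols for a value of 0. RNU4ATAC and RNU11 stood highest in the empty vector libraries, RNU4-62P was above 0 only in the 3 libraries labelled hPRM1, and RNU12 only in hPRM2 replicates 2 and 3.

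In the empty vector libraries, from HEK293T cells without a protamine, 4 members were measured and 6 were at 0. Because the libraries were primed on poly(A) stretches, these values describe the reads captured and not the amounts of these RNAs in the cells. RNU4ATAC was at 7190.3, 10533 and 11266 RPKM (243, 384 and 518 reads) and RNU11 at 3524, 3993 and 6558 RPKM (126, 154 and 319 reads). These ranges did not overlap. RNU4-2 followed at 607, 391 and 1899.8 RPKM (23, 16 and 98 reads) and RNU5B-1 at 1642, 209 and 639 RPKM (51, 7 and 27 reads). RNU4-2 and RNU5B-1 overlapped widely and their order was within the spread between libraries. Their highest values fell in different libraries, replicate 3 for RNU4-2 and replicate 1 for RNU5B-1. RNU12, RNU4-1, RNU4-62P, RNU5A-1, RNU5D-1 and RNU7-1 had no read assigned in any empty vector library. Over the group this allows up to 21.3 RPKM for RNU12, 28.1 RPKM for RNU5D-1 and 39.8 RPKM for RNU7-1 (3 reads, counting error only). These limits leave out reads assigned to overlapping genes.

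The minor spliceosome members were nearly empty in the libraries labelled hPRM1. RNU4ATAC, the U4atac gene, was at 200.05, 446 and 179.5 RPKM there, which is 5.0, 8.0 and 4.0 reads, and all 3 values lay below the lowest empty vector library. The group means were 275 ± 148 RPKM (SD, n = 3) and 9663 ± 2173 RPKM (SD, n = 3) in the empty vector libraries, or 35.1-fold lower. RNU11, the U11 gene, had no read assigned in any library labelled hPRM1, which with the limit of 3 reads over the group is at least 108-fold lower than the empty vector mean of 4692 ± 1633 RPKM (SD, n = 3). This leaves out the 1.0 read assigned to the overlapping AL360012.1 in replicate 1. RNU12, the U12 gene, was at 0 in both groups, so it has no fold change. In bulk libraries fewer cells of a type and less RNA per cell cannot be told apart.

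Of the major spliceosome members, RNU4-2 and RNU5B-1 were low and RNU4-62P was high in the libraries labelled hPRM1. RNU4-2 had 2.0 reads in replicate 1 (71.3 RPKM) and none in replicates 2 and 3, against 137 reads in the empty vector libraries. RNU5B-1, a U5 gene, had no read in the libraries labelled hPRM1, at least 16.6-fold lower than the empty vector mean of 830 ± 735 RPKM (SD, n = 3). RNU4-62P was at 1262, 1818 and 1856 RPKM (32.3, 33.4 and 42.3 reads) in the libraries labelled hPRM1 and at 0 in the other 6. Its mean of 1646 ± 332 RPKM (SD, n = 3) was 65.3-fold the empty vector limit of 25.2 RPKM for a 0. These reads and this limit use all 130 bases, the closing 14 A included. At the effective length of 116-base genes the limit would be 28.1 RPKM, and the reads and the fold lower. The 3 libraries labelled hPRM1 lay close together, and none of the other 6 had a read.

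The read estimates for RNU4-62P were not whole numbers, unlike those of RNU4ATAC, RNU11 and RNU4-2. They depend on the length used, so the fractions do not show whether reads were shared with other transcripts. HCLS1, the gene around RNU4-62P on the same strand, encodes a signalling protein of blood cells. HCLS1 was at 0 in the 3 empty vector libraries, at 164, 210.1 and 185 RPKM in the libraries labelled hPRM1 and at 14.2, 0.449 and 1.42 RPKM in hPRM2. HCLS1 and RNU4-62P were thus high in the same 3 libraries, and the part of HCLS1 transcripts in the RNU4-62P value was not tested. In hPRM2 replicate 1, where HCLS1 was at 14.2 RPKM, RNU4-62P had no read, which allows up to 259 RPKM at its full length of 130 bases.

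Over all genes, 75.4% of the 13588 tested genes were called for the libraries labelled hPRM1 (12.9% higher and 62.5% lower) with limma, at an adjusted p of at most 0.05 and a change of at least 2-fold. Of the 10 members, 5 passed the filter of 1 RPKM in at least 3 of 6 libraries and all 5 met the call rule, 4 lower (RNU11, RNU4ATAC, RNU4-2, RNU5B-1) and 1 higher (RNU4-62P). The per-gene test on RPKM called only RNU4ATAC and RNU4-62P of these 5. The members were chosen on this contrast and nothing is read from these counts. The split of all calls depends on scaling, with 17.1% of calls higher as deposited, 60.1% after median-of-ratios rescaling and 45.1% after quantile normalization. The median log2 fold change of all genes moved with it, from -1.72 as deposited to 0.34 and -0.25. On the same scale RNU4ATAC was at -5.23 as deposited, -2.72 after median-of-ratios rescaling and -3.36 after quantile normalization, below the median of all genes each time. The fitted values of members with no read depend on the pseudocount and are not given here.

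The hPRM2 contrast was tested, although the members were listed with earlier results of these data known. Among the hPRM2 libraries, replicate 1 held RNU4ATAC and no other member. Replicates 2 and 3 held a larger share of all their reads on RNU4ATAC and RNU12, but not on RNU11, than any empty vector library. RNU4ATAC was at 6367, 28187 and 37046 RPKM (72.0, 153 and 254 reads). Replicate 1 lay just below the lowest empty vector library and replicates 2 and 3 above the highest, so the groups overlapped. The mean of 23867 ± 15789 RPKM (SD, n = 3) was 2.47-fold that of the empty vector, and the log2 fold change of 0.99 ± 0.63 (SE) did not pass the threshold (limma, adjusted p = 0.349). Without hPRM2 replicate 1 the log2 fold change was 1.77 ± 0.23 (SE) and passed (limma, adjusted p = 0.0145, higher in 2 of 2 libraries), a 3.38-fold difference of the means. That fit called 17.6% of 12825 genes, 5.30% higher and 12.3% lower, so a call was far more common in it. Over the 16 other alternatives the adjusted p was 0.22 to 0.752.

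RNU11 had no read in hPRM2 replicate 1, which allows up to 251 RPKM, and was at 4354 and 4963 RPKM (25 and 36 reads) in replicates 2 and 3. The latter 2 values fell within the range of the empty vector libraries. The log2 fold change was -4.02 ± 3.15 (SE; limma, adjusted p = 0.436), and 0.04 ± 0.28 (SE; adjusted p = 0.925) without replicate 1, where the ratio of the means was 0.993. No difference in RNU11 was detectable at this depth and spread.

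RNU12 was assigned reads only in the hPRM2 libraries, at 0, 3893 and 1695 RPKM (0, 25.7 and 14.1 reads). Counting only reads assigned to RNU12, the mean of 1863 ± 1952 RPKM (SD, n = 3) was 87.6-fold the empty vector limit of 21.3 RPKM. Without replicate 1 it was 131-fold that limit. Replicate 1 was at 0, as were all empty vector libraries, and a two-sided exact permutation test over the 6 libraries gave p = 0.4, where 3 against 3 libraries cannot go below 0.1. RNU12 did not pass the filter on low values. With no filter its log2 fold change was 7.55 ± 2.96 (SE; limma, unadjusted p = 0.0392, adjusted p = 0.283), in a fit where 16.7% of all genes had an unadjusted p under 0.05. The overlapping gene Z93241.1 was at 13.9 and 13.3 RPKM (7.3 and 8.9 reads) in the same 2 hPRM2 libraries. It was at 3.35, 0 and 0 RPKM (11, 0 and 0 reads) in the empty vector libraries. Both annotations were thus highest in RPKM in replicates 2 and 3 of hPRM2. Reads of RNU12 and Z93241.1 cannot be separated with certainty, and the RNU12 estimates were not whole numbers. If the 11 reads of empty vector replicate 1 belong to RNU12, the folds above are too large.

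U6atac, the pairing partner of U4atac, is the remaining RNA of the minor spliceosome, transcribed by RNA polymerase III, and its gene RNU6ATAC is no member. RNU6ATAC was at 5727, 2406 and 2631 RPKM (192, 87.0 and 120.0 reads) in the empty vector libraries, at 0 in those labelled hPRM1 and at 535, 88213 and 83215 RPKM (6.0, 475 and 566 reads) in hPRM2. It thus gave the lowest hPRM2 value in replicate 1, under every empty vector library, and values far above them in replicates 2 and 3. In the libraries labelled hPRM1 it was at least 77.4-fold lower. Without hPRM2 replicate 1 it was 23.9-fold higher, with a log2 fold change of 4.69 (limma, adjusted p = 0.00355), and over the 16 other alternatives the adjusted p was 0.353 to 0.792.

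**Figure D2:**
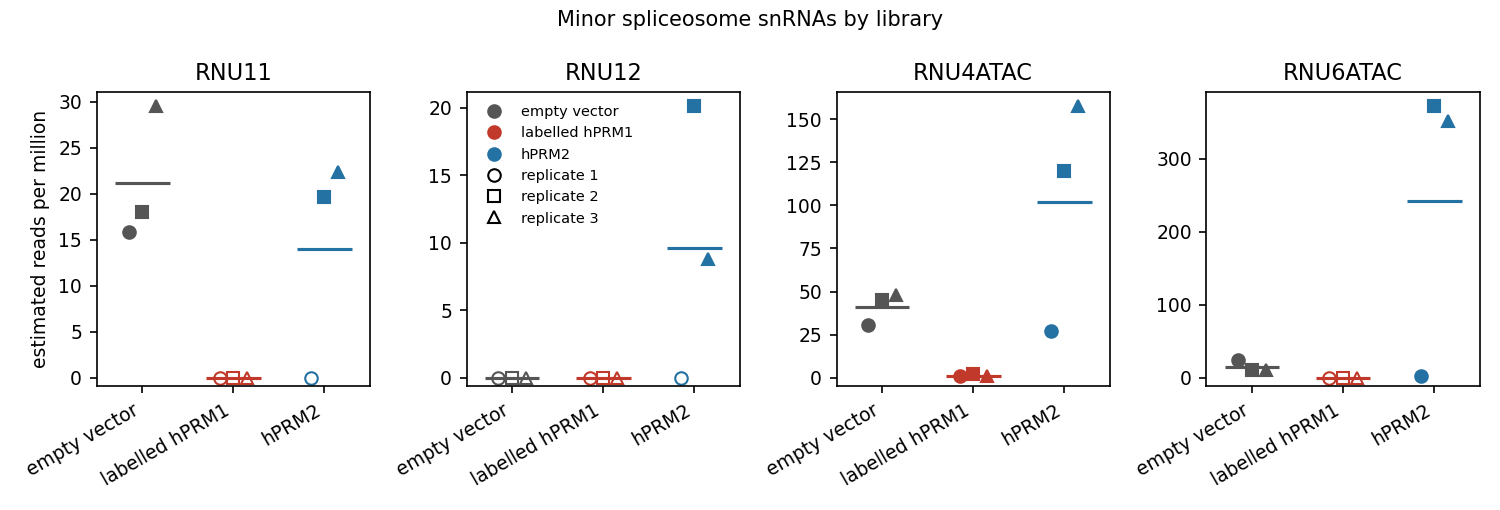
Estimated reads scaled to the depth of each library (linear axis, each gene on its own scale) for RNU11, RNU12, RNU4ATAC and RNU6ATAC in each library, with colour for the group, shape for the replicate, open symbols for 0 and a horizontal line at the group mean. RNU4ATAC and RNU6ATAC in hPRM2 replicates 2 and 3 lie above all empty vector libraries, RNU11 in these 2 libraries lies among them, and hPRM2 replicate 1 is at or below them in each gene.

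Replicates 2 and 3 of hPRM2 also stood apart in BCYRN1, a short RNA polymerase III transcript with an A-rich region. Its RPKM was 1058980 to 1462930 in the empty vector libraries, 1141880 in hPRM2 replicate 1, and 14664000 and 12031300 in replicates 2 and 3. In the libraries labelled hPRM1 it was 21.5 to 187 RPKM. BCYRN1 moved with RNU4ATAC, RNU12 and RNU6ATAC across the hPRM2 libraries, and its part in their values was not tested.

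The U4 and U5 members of the major spliceosome showed no difference past the threshold in hPRM2. RNU4-2 was at 0, 1314 and 1429.9 RPKM (0, 8 and 11 reads), and its values above 0 lay within the empty vector range. Its log2 fold change was -2.64 ± 2.75 (SE; limma, adjusted p = 0.553) and 0.84 ± 0.63 (SE; adjusted p = 0.342) without replicate 1, so the sign rests on that library. RNU4-1, the near-identical copy, had 1.0 read in each of replicates 2 and 3 (164 and 130.0 RPKM) and none elsewhere. At 97.2% identity a read of 1 copy can be counted on the other, and the summed U4 members were not called either (log2 fold change -2.54 ± 2.78 SE; limma, adjusted p = 0.574).

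RNU5B-1 was at 0, 1203 and 0 RPKM in hPRM2, all from 6.0 reads in replicate 2. Its log2 fold change was -5.83 ± 2.67 (SE; limma, adjusted p = 0.223), the lowest of the 4 tested members. It was -4.12 ± 3.18 (SE; adjusted p = 0.364) without hPRM2 replicate 1 and -9.24 ± 0.87 (SE; adjusted p = 0.0563) without replicate 2, the only hPRM2 library with reads, so the size rests on that library. RNU5A-1 was at 793 RPKM (5.0 reads) in hPRM2 replicate 3 and at 0 in the other 8 libraries (two-sided exact permutation p = 1). RNU5B-1 and RNU5A-1 were thus each read in a different hPRM2 library, and the summed U5 members were at 0, 1203 and 793 RPKM in hPRM2 against 209 to 1642 RPKM in the empty vector libraries (log2 fold change -2.62 ± 2.64 SE; limma, adjusted p = 0.539). RNU5D-1 and RNU7-1 had no read in any of the 9 libraries, which in the hPRM2 group allows up to 138 and 196 RPKM.

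Of the 10 members, 4 passed the filter in the hPRM2 contrast, and limma called 0 of the 4, with 0 of 4 at an unadjusted p under 0.05 (25.5% of all genes tested) and 0 by the per-gene test. Over all genes, 2.74% of 13126 were called (1.36% higher and 1.37% lower), so a count of 0 among 4 is near the background. Both contrasts use the same empty vector libraries and are not independent. The split of all hPRM2 calls, 49.9% higher as deposited, was 77.0% after median-of-ratios rescaling and 68.9% after quantile normalization, and the median log2 fold change of all genes moved from -0.72 to -0.21 and -0.40. The median over the 4 tested members was -3.33, with replicate 1 at 0 in 3 of them.

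**Figure D3:**
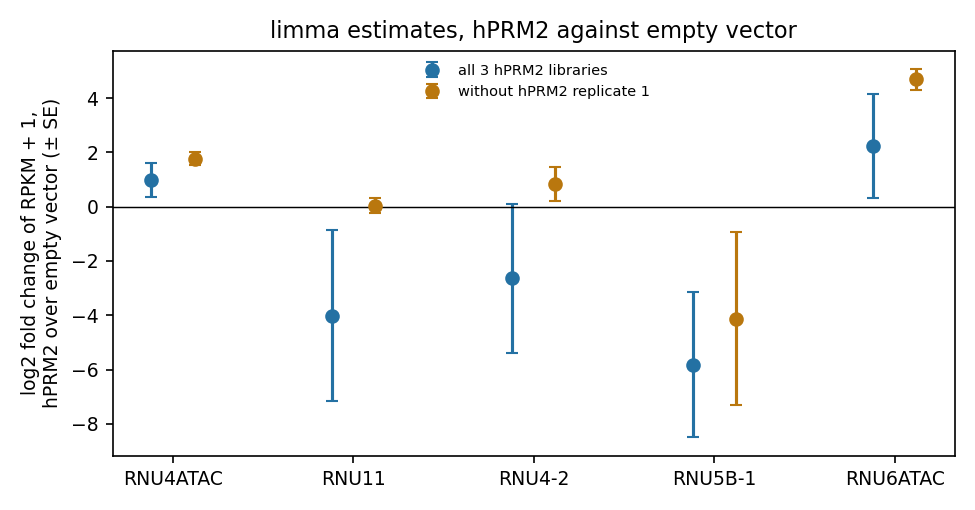
log2 fold change of RPKM + 1 between hPRM2 and empty vector libraries (limma estimate, bars ± SE) for the 4 tested members and RNU6ATAC, with all 3 hPRM2 libraries and without replicate 1. Without replicate 1, the estimate moves from 0.99 to 1.77 for RNU4ATAC, to 4.69 for RNU6ATAC and from -4.02 to 0.04 for RNU11.

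The balance of minor to major members was then compared by library. The major members cover U4 and U5 only, without U1, U2 or U6. With priming on poly(A) stretches, the shares describe the reads captured and not the amounts of these RNAs in cells. In the empty vector libraries the minor members held 83.3%, 95.9% and 87.0% of the reads on spliceosomal members. In hPRM2 they held 100%, 93.1% and 94.7%, overlapping the empty vector range in replicates 2 and 3 and resting on 72.0 reads of RNU4ATAC alone in replicate 1. The log2 ratio of summed RPKM was 3.22 ± 1.22 (SD, n = 3) in the empty vector libraries and 6.87 ± 5.0 (SD, n = 3) in hPRM2, a difference within the spread of the hPRM2 libraries. In hPRM2 replicates 2 and 3 the ratio was 3.76 and 4.21, inside the empty vector range of 2.25 to 4.6. With other annotated U4 and U5 copies added, the mean log2 ratio was 2.17 ± 0.77 (SD, n = 3) in the empty vector libraries. It was then -2.97 ± 0.61 in those labelled hPRM1 and 6.33 ± 5.47 in hPRM2 (SD, n = 3 each).

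In the libraries labelled hPRM1 the minor share was 12.7%, 19.3% and 8.63%, and the log2 ratio -2.71 ± 0.67 (SD, n = 3), below all the other 6 libraries. That low share came from RNU4-62P, whose reads were estimated over all 130 bases. Without RNU4-62P the minor share was 71.4%, 100% and 100%, from 5.0, 8.0 and 4.0 minor reads and 2.0, 0 and 0 major reads, and the log2 ratio turned to 5.92 ± 3.91 (SD, n = 3). With so few reads the balance of the remaining members in the libraries labelled hPRM1 could not be told from that of the empty vector libraries.

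**Figure D4:**
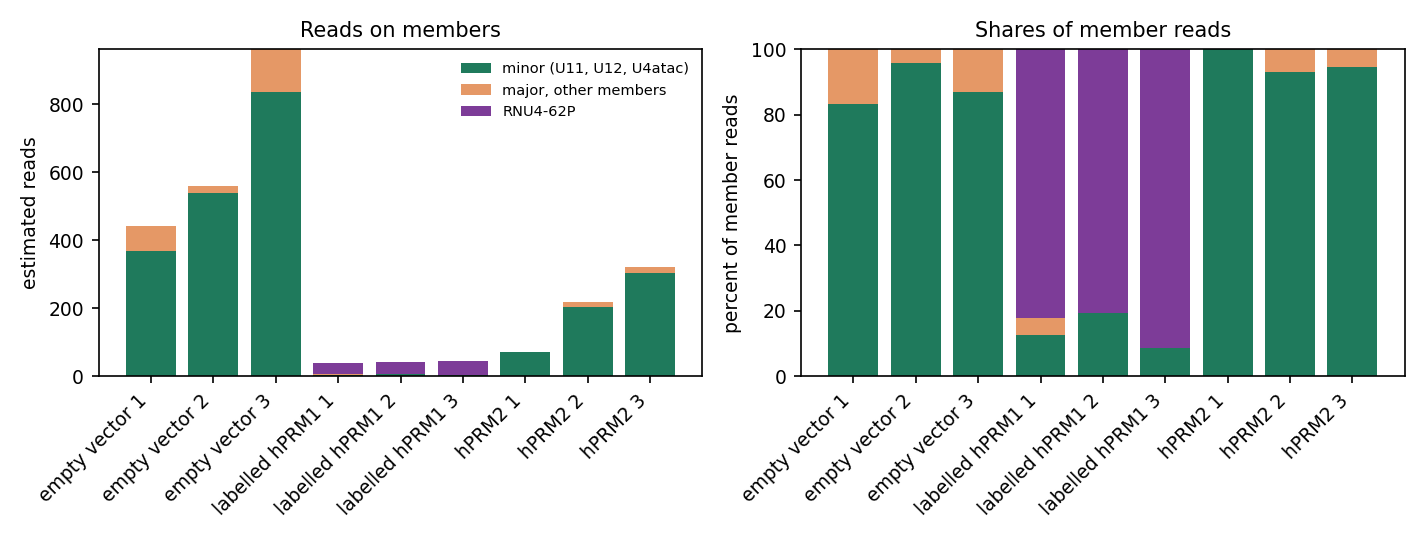
Estimated reads on the minor members, on RNU4-62P and on the other major members in each library (left, stacked bars from 0), and the same as a percent of the reads on these members (right). Minor members hold 83.3% to 95.9% in the empty vector libraries and 93.1% to 100% in hPRM2, while RNU4-62P holds most of the few reads in the 3 libraries labelled hPRM1.

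Other annotated U snRNA genes showed how few copies were read. Of 1766 further annotated copies of the U1, U2, U4, U5, U6, U7, U11, U12, U4atac and U6atac families, 84 were above 0 in any library, 36 in the empty vector libraries, 41 in those labelled hPRM1 and 43 in hPRM2. RNU5F-1, a U5 gene, was at 831, 356 and 893 RPKM in the empty vector libraries, at 0 in those labelled hPRM1 and at 0, 0 and 1103 RPKM in hPRM2. RNU5E-1, another U5 gene, was read in hPRM2 replicate 3 alone, at 1232 RPKM. RNU5A-1, RNU5E-1 and RNU5F-1 were thus all read in that hPRM2 library. RNU2-2P, of the U2 family that pairs with the branch site, was at 0, 69.9 and 5843 RPKM in the empty vector libraries, at 37.7, 377 and 265 RPKM in those labelled hPRM1 and at 0, 6595 and 1344 RPKM in hPRM2, a spread within groups as large as any between them. A pair of genes annotated as U2 held the same value, such as 14812 RPKM in hPRM2 replicate 2, in every library but empty vector replicate 1, where 1 had 8064 RPKM and the other 0. Values of single U2 copies are therefore uncertain.

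The proteins that build and mature these particles were described by lists written with earlier results of these data known. For hPRM2, limma called 0 genes in each of the lists: 13 minor spliceosome proteins, 17 proteins of the U5 and U4/U6.U5 particles, 9 Sm ring and U7 proteins, 10 snRNA transcription factors, 14 Integrator subunits and 16 export, assembly and maturation factors. At an unadjusted p under 0.05 the counts were 3, 2, 3, 2, 4 and 5 in the same order, beside 25.5% of all genes tested, and the per-gene test and quantile normalization gave 0 calls, while median-of-ratios rescaling gave 1 higher call each among the U5 and U4/U6.U5 proteins and the Integrator subunits. Without hPRM2 replicate 1, limma called 1 higher and 2 lower, 0 and 5, 0 and 2, 0 and 0, 0 and 3, and 1 and 1 in the same order, beside the 17.6% of all genes. The median log2 fold changes of the lists, -1.38 to -0.40, lay around the -0.72 of all genes. ZCRB1, a protein of the U11/U12 particle, was at 251, 220.3 and 161 RPKM in the empty vector libraries and 145, 134 and 173 RPKM in hPRM2 (log2 fold change -0.46 ± 0.31 SE; limma, adjusted p = 0.364). PRPF8, the core protein of the U5 particle, had a log2 fold change of -1.11 ± 0.39 (SE; limma, adjusted p = 0.145). SNRPD2, a protein of the Sm ring, was at 2635, 2761 and 3495 RPKM in the empty vector libraries and 3615, 3796 and 3511 RPKM in hPRM2 (0.31 ± 0.20 SE on the log2 scale; limma, adjusted p = 0.356). INTS13, an Integrator subunit, had the lowest adjusted p of the genes named from these lists, with -1.87 ± 0.45 (SE; limma, adjusted p = 0.0736), and its 3 hPRM2 values of 54.5, 59.3 and 152 RPKM lay below the 254 to 345 RPKM of the empty vector libraries. ICE1, a factor of snRNA gene transcription, and SRRT, which binds capped transcripts, did not pass either (limma, adjusted p = 0.324 and 0.895).

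In the libraries labelled hPRM1, as a description, the counts of lower calls were 7 of 13 minor spliceosome proteins, 16 of 17 U5 and U4/U6.U5 proteins, 9 of 9 Sm ring and U7 proteins, 6 of 10 transcription factors, 11 of 14 Integrator subunits and 16 of 16 export and assembly factors, with 0 higher, beside 62.5% lower calls over all genes. After median-of-ratios rescaling the lower and higher counts were 2 and 5, 4 and 3, 7 and 0, 1 and 5, 4 and 2, and 7 and 0 in the same order, beside 23.6% lower and 35.5% higher calls over all genes in that scaling, so the counts depend on the scaling. As deposited, the median log2 fold changes were -1.14, -2.27, -4.44, -1.29, -1.61 and -2.85 in the same order, beside the -1.72 of all genes. SNRPD2 was at 47.3, 29.4 and 28.5 RPKM and ZCRB1 at 11.1, 12.2 and 9.42 RPKM in these libraries, each below its empty vector values.

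Genes whose profile over the 9 libraries was most like that of a member were found by the root mean square difference of centred log2(RPKM + 1) values among 13706 genes with a symbol and at least 1 RPKM in at least 3 libraries. For RNU11 they were SNORD118, the U8 small nucleolar RNA (difference 1.65), RNY3, a Y RNA (2.13), and RNVU1-27, a variant U1 gene (2.24). SNORD118 was at 744, 306 and 1025 RPKM in the empty vector libraries, 0 in those labelled hPRM1 and 0, 11902 and 9314 RPKM in hPRM2. All 4 genes were at 0 in hPRM2 replicate 1 and above 0 in its replicates 2 and 3, which is part of the likeness they were picked on. For RNU12 they were RN7SL753P (1.81) and a gene annotated Metazoa_SRP (2.01), both related to the signal recognition particle RNA, and RNA5SP46, a 5S ribosomal RNA pseudogene (2.07). For RNU4-2 they were the protein-coding genes DMC1 (1.98), SPDL1 (2.05) and MACROD1 (2.09).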

How the data were processed

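RNA was measured in 9 libraries labelled as HEK293T cells, 3 for each group, grouped by the labels. Libraries were made with the QuantSeq 3′ mRNA kit. The authors processed reads with nf-core/rnaseq (FastQC, Cutadapt, STAR and Salmon, versions not given in the sources used here), with build hg38 per the labels, and removed mitochondrial genes. The annotation is not given in the sources used here. The authors deposited RPKM values for 57338 genes, without counts, and 0 further value columns were left unused.

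Reads on each member were estimated here from the RPKM, the estimated depth and an effective length, taken as the GENCODE 29 length minus the mean of a fragment length distribution (mean 250, SD 25 bases) cut at that length. This gave reads that were whole within 0.05 for 89.3% of 541 low values of genes of 100 to 200 bases with a single transcript. The effective length is an inference, since the methods name the gene length. Limits for a value of 0 are 3 reads and cover counting error only. These values are not counts, so no count model was run.

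Each contrast was fitted in R 4.3.3 with limma 3.58.1 (eBayes with trend and robust) on log2(RPKM + 1), over genes with at least 1 RPKM in at least 3 of 6 libraries, with Benjamini-Hochberg adjustment over all genes tested, calling a gene at 0.05 (adjusted p) and a difference of 2-fold or more. The pseudocount makes fold changes of low genes too small. The scripts were tested on simulated data with a limited spread between libraries. That test does not cover members read in only some libraries of a group. Python 3.11.15 (pandas 2.3.3, SciPy 1.17.1, Biopython 1.88, matplotlib 3.10.9) served for the remaining values and the plots. The members, gene lists and alternatives were chosen with earlier results of these data known. Named genes were the members, related U snRNA genes, in each protein list the gene with the highest empty vector mean, and the 3 genes most like RNU11, RNU12 and RNU4-2. AL360012.1, Z93241.1, CLASP1, HCLS1 and C12orf57 were added for their overlap with members and BCYRN1 after its values were seen. The sequences and positions of the U5 members are not reported here.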

Additional observations from a re-analysis of the deposited data

How the results depend on the processing

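Genes called for the libraries labelled hPRM1 numbered 10241 as reported, 5837 with a minimum of 10 RPKM, 4514 with the per-gene test on RPKM and 1250 with a pseudocount of 100, which was chosen after seeing the data. For hPRM2 the 359 calls became 89 with no filter, 167 with a minimum of 10 RPKM, 2125 in a fit of all 9 libraries, 9 with the per-gene test, 23 with a pseudocount of 100, and 10 to 2257 when 1 library was left out (2257 without hPRM2 replicate 1, 10 without hPRM2 replicate 2, 17, 41 and 15 without empty vector replicates 1, 2 and 3, and 15 without hPRM2 replicate 3). Members called in hPRM2 numbered 0 to 1 over the libraries left out, the 1 being RNU4ATAC without hPRM2 replicate 1, and 0 under the other alternatives. Over the libraries left out, the hPRM2 log2 fold change was -6.10 to 0.0407 for RNU11 and -4.40 to 0.84 for RNU4-2, each positive only without hPRM2 replicate 1, and -9.24 to -4.12 for RNU5B-1. The per-gene test ends the calls of RNU11, RNU4-2 and RNU5B-1 in the libraries labelled hPRM1, and the cause was not tested. With the U4 copies summed, the fold of the U4 members in the libraries labelled hPRM1 was 1.11 on the log2 scale, against -7.53 for RNU4-2 alone, since RNU4-62P entered the sum. The mean log2 ratio of minor to major members in those libraries turned from -2.71 to 5.92 without RNU4-62P, an alternative chosen after seeing the data.

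Same-numbered libraries did not deviate together (correlations of deviations from the group means of -0.01, 0.04 and -0.03 against the libraries labelled hPRM1, and of -0.02, 0.09 and -0.08 against hPRM2), so the numbers were not taken as pairs. A replicate block gave 57 calls for hPRM2 and 10334 for the libraries labelled hPRM1, with 0 members called in hPRM2.

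The hPRM2 libraries are the shallowest, and 1 read on a member is worth most there, so RNU4-1, RNU5A-1 and RNU5B-1 in hPRM2 rest on 2.0, 5.0 and 6.0 reads. The median-of-ratios and quantile scalings kept the sign of each tested member.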
